A study of Arabidopsis thaliana with 74 samples.

Results

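QQS (AT3G30720, QUA-QUINE STARCH) was used to sort the epigenetic recombinant inbred lines (epiRILs) of an Arabidopsis thaliana hybrid experiment. CPM (the count of a gene divided by the total count of its library and multiplied by 1000000) of QQS was ranked over the 36 epiRIL libraries, and the 12 highest and the 12 lowest were compared. These 24 epiRILs, and the 24 epiHybrids of the same line numbers, came from a series of 74 libraries. The study chose its 36 families by leaf area of the epiHybrid against its parents: 12 highest, 12 lowest and 12 without a difference. How these leaf area groups fall on the QQS classes was not tested. The 12 epiRILs between both classes and the 2 msCol libraries served only as further reference values. An epiRIL is a line in the Columbia background with chromosome segments that lost DNA methylation in a ddm1-2 mutant forebear, in a plant that itself has a working DDM1 gene. DDM1 (DECREASE IN DNA METHYLATION 1) is a chromatin remodeler needed to keep DNA methylation. msCol is a male-sterile Columbia mother with the ms1 mutation in a segment from Landsberg (Ler) on chromosome 5, and an epiHybrid is the first-generation offspring of msCol and an epiRIL father. All groups were rosettes harvested 27 days after sowing. Each line was 1 library of rosettes pooled over 3 cultivation experiments, so lines were the replicates and p-values measure the spread between lines, not between plants.

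QQS encodes a small protein of a gene found only in Arabidopsis thaliana (an orphan gene). It is known as a regulator of how leaf carbon is divided between starch and protein, and its protein binds the transcription factor subunit NF-YC4. The gene lies in the pericentromeric part of chromosome 3, and its transcription is known to vary between plants of one genotype with the DNA methylation of repeats near its start. In plants, loss of DNA methylation in the CG context can release silent genes and transposons, and CG methylation lost in ddm1 is in part not regained over generations, so epiRILs inherit active and silent states by segment.

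DNA methylation was not analysed here, so the sequence just before 3 genes is shown to give the CG sites at which such methylation could sit: QQS itself, AT3G30770 (the nearest tested gene on its right) and BR6OX2 (a gene whose classes did not overlap in the opposite direction). Each run holds the 250 bases before the annotated start, plus strand, from RefSeq's TAIR10.1 assembly, and capitals mark CG.
QQS promoter, chr3:12348797-12349046: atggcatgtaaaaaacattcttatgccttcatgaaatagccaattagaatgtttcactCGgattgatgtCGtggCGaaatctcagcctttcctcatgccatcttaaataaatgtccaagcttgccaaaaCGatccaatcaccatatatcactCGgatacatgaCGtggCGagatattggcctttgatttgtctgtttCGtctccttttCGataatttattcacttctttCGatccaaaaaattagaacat
AT3G30770 promoter, chr3:12445243-12445492: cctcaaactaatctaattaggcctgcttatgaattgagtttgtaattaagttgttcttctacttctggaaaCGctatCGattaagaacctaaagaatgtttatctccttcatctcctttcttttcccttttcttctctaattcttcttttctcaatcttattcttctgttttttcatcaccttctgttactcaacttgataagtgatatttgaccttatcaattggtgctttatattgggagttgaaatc
BR6OX2 promoter, chr3:11810476-11810725: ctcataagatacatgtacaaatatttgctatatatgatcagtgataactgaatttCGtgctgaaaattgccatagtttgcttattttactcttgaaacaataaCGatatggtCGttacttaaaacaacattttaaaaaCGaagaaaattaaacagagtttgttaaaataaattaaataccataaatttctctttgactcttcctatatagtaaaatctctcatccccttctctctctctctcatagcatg
The QQS window held 10 CG sites, and 12.5% of the 27426 protein-coding genes with such a window had as many or more. AT3G30770 held 2 (88.1% of genes had at least that) and BR6OX2 held 4 (64.6%), with a median of 5 over all genes. The 7 letters CGTGGCG, searched on both strands and chosen after looking at the sequence, occurred 2 times in the QQS window and in neither of the other windows. At least 1 match was present in 1.03% and at least 2 in 0.0438% of the 27426 windows.

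QQS was not evenly spread over the epiRILs. In the 12 high-QQS epiRILs it had 35.1 CPM at the lowest (line 424), 47.4 CPM at the median and 59.0 CPM at the highest (line 574). In the 12 low-QQS epiRILs it had 0.638 CPM at the lowest (line 462), 2.22 CPM at the median and 4.30 CPM at the highest (line 330). These are 1443 to 2391 counts in high-QQS lines and 25 to 168 counts in low-QQS lines, so counting error is small beside the gap. The classes averaged 48.6 ± 8.08 CPM and 2.25 ± 1.34 CPM (SD, n = 12 each), which is a description of the ranking and was not tested.

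The lower edge of the high class was a wide step, and the upper edge of the low class was not. Line 424 with 35.1 CPM was the last inside the high class, and line 310 with 19.8 CPM was the first outside it. Line 330 with 4.30 CPM was the last inside the low class, and line 368 with 4.99 CPM was the first outside it. The 2 msCol libraries had 5.60 CPM (msCol-12) and 4.67 CPM (msCol-16), where the numbers name maternal plants and not epiRIL lines. All 12 low-QQS lines were below both msCol libraries, and 8 of the 12 lines between the classes were above both.

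**Figure D1:**
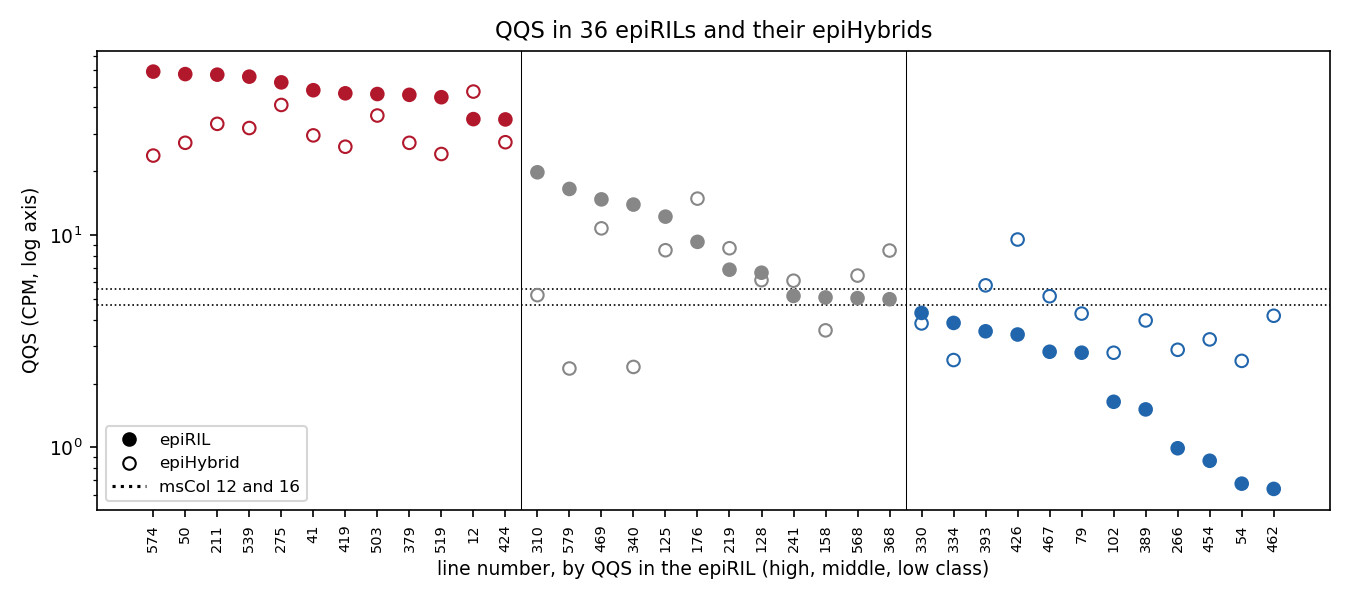
QQS in CPM (log axis) in each of the 36 epiRILs, ordered by rank, with the epiHybrid of the same line number and both msCol libraries. The 12 high-QQS epiRILs sit between 35.1 and 59.0 CPM and the 12 low-QQS epiRILs between 0.638 and 4.30 CPM, while epiHybrids of the high class sit between 23.7 and 47.5 CPM.

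Depth and technical measures overlapped between both classes. Library totals were 39.03 to 41.67 M counts in high-QQS and 38.13 to 41.69 M counts in low-QQS epiRILs. The slope of expression deviations on log2 exon length, a measure of RNA or library quality, averaged -0.0173 ± 0.094 in high-QQS and -0.000708 ± 0.126 in low-QQS lines (SD, n = 12 each). The summed level of 5 rosette markers (RuBisCO small subunits, chlorophyll-binding proteins and RuBisCO activase) was 30900 to 54900 CPM in high-QQS and 23200 to 47100 CPM in low-QQS epiRILs. Of 6 floral markers the sum was 11.4 to 32 CPM in high-QQS and 12.5 to 37 CPM in low-QQS lines, and the 3 root markers summed to at most 0.267 CPM in high-QQS and 0.42 CPM in low-QQS lines. The samples are bulk rosettes, in which fewer cells of a type and less RNA per cell cannot be told apart.

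Line 12 needs care. On 17 genes of chromosome 5 that separate msCol from epiRILs, each library was placed on a scale with epiRILs at 0 and msCol at 1. The other epiRILs lay between -0.207 and 0.0863 and the other epiHybrids between 0.193 and 0.474, leaving out lines 12 and 568 (34 libraries each). The library labelled epiRIL 12 lay at 0.25 and the library labelled epiHybrid 12 at 0.0152, each among libraries of the other generation. Line 568 belongs to neither class. Its library labelled epiHybrid lay at 0.0102, among the epiRILs, and its library labelled epiRIL at 0.137, between both ranges. QQS was 47.5 CPM in the library labelled epiHybrid 12 and 35.2 CPM in that labelled epiRIL 12, so that line 12 stays in the high class either way. With both libraries exchanged, the epiRIL comparison below lost 1 of its 27 lower calls outside chromosome 3 (AT5G62280) and kept its other calls, and values with the exchange are given for QQS, BR6OX2 and AT3G26490.

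The next question was whether the class of the father carried over to the epiHybrids, libraries the ranking had not used. It did for QQS. QQS had 23.7, 28.5 and 47.5 CPM (lowest, median and highest) in the 12 epiHybrids of high-QQS fathers, against 2.56, 3.90 and 9.54 CPM in the 12 epiHybrids of low-QQS fathers. No epiHybrid of one class reached the range of the other. The means were 31.3 ± 7.25 and 4.23 ± 1.96 CPM (SD, n = 12 each), a 7.4-fold difference. The difference in mean log2(CPM + 1) was 2.67 ± 0.158 (SE), with a permutation p of 1e-05, the smallest that 100000 resamples can give (two-sided). In the edgeR quasi-likelihood test across all genes, the log2 fold change of QQS was 2.89 with a Benjamini-Hochberg (BH) adjusted p of 5.62e-11, and with the libraries of line 12 exchanged it was 2.83.

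Within families, QQS of the epiHybrid lay between the father and the msCol mean in 11 of 12 families of high-QQS fathers and in 7 of 12 of low-QQS fathers. Among families of high-QQS fathers, the epiHybrid was below the father in 11 of 12, and the exception was line 12, whose labels are in doubt. The ratio of the epiHybrid class mean to the father class mean was 0.644. Against the mid-parent (the mean of the epiRIL and of both msCol libraries) the ratio had a median of 1.07 and a range of 0.74 to 2.35. The highest ratio was again that of line 12. Among families of low-QQS fathers, the epiHybrid was above the father in 10 of 12, and the ratio to the mid-parent had a median of 1.08 and a range of 0.574 to 2.24.

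All other genes were then compared between both classes. In high-QQS epiRILs 21 of 19382 tested genes were higher (0.108% of genes tested) and 31 were lower (0.16%) than in low-QQS epiRILs (edgeR quasi-likelihood test, adjusted p under 0.05, QQS itself not tested). In epiHybrids 22 of 19383 genes were higher with high-QQS fathers (0.114%, QQS included) and 32 were lower (0.165%). The lower count in epiHybrids depended on single lines: it was 11 to 21 without any one of the 10 high-QQS lines 503, 574, 379, 424, 12, 539, 50, 211, 419 and 275 or the low-QQS lines 266, 102 and 389, and up to 44 without another line. With the length slope of each library as a covariate, 34 genes were higher and 17 lower in epiHybrids. Of the 52 genes called in epiRILs, 41 were also called in epiHybrids in the same direction (78.8% of the epiRIL calls and 77.4% of the 53 epiHybrid calls other than QQS), and all 52 had the same sign in epiHybrids. An epiHybrid shares its paternal chromosomes with its epiRIL, so both generations are not separate draws of lines. No gene passed the test of whether the difference between classes itself differed between epiHybrids and epiRILs (0 of 19382, 0%, edgeR interaction test). At an unadjusted p under 0.05 that test gave 784 genes, and DESeq2 called 5 genes (AT2G06425, AT2G06570, AT2G07750, AT2G14945 and AT2G15710), all of them on chromosome 2.

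The higher genes were almost all on chromosome 3 around QQS. Chromosome 3 held 20 of the 21, and the 3849 genes tested there make these 0.52%. Within 0.5 Mb of QQS, 4 of 11 tested genes were higher (36.4%), and between 0.5 and 1 Mb 5 of 19 (26.3%). Between 1 and 2 Mb the count was 2 of 117 (1.71%), and between 2 and 4 Mb it was 9 of 451 (2%). Farther away on chromosome 3, no gene was called among 679 genes at 4 to 6 Mb and 2572 genes beyond. In epiHybrids the counts of higher genes in the first 4 of these bins were 4, 5, 2 and 10 (QQS left out), and 4, 5, 2 and 8 genes were called higher in both generations. Linked genes are inherited together and are not independent observations.

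**Figure D2:**
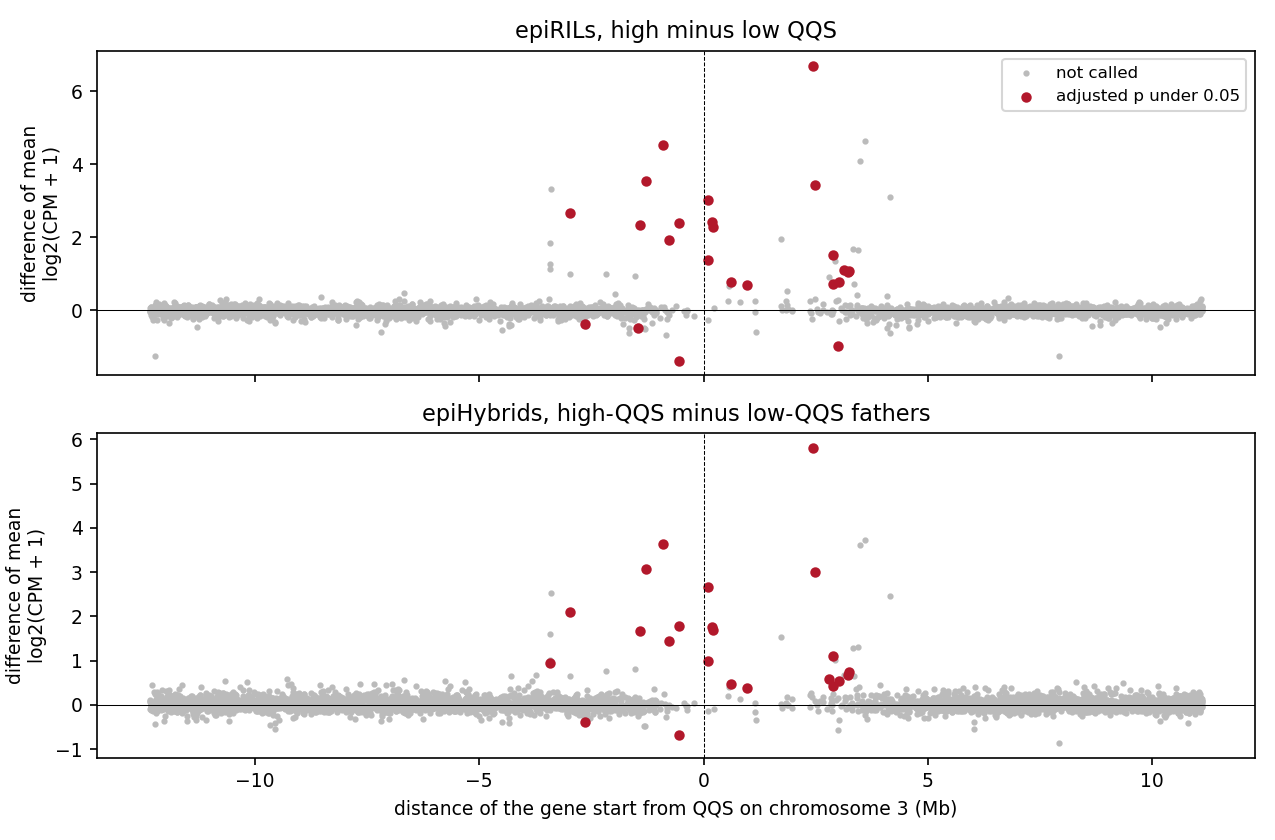
Difference between classes in mean log2(CPM + 1) (high-QQS minus low-QQS) of each tested gene of chromosome 3 against its distance from QQS in Mb (negative towards the start of the chromosome), for epiRILs and epiHybrids. Called genes are marked and lie within 4 Mb on either side of QQS, and none is called beyond.

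The 20 higher genes of chromosome 3 spanned 6.21 Mb and were mostly silent in low-QQS lines. They comprised 13 annotated as protein-coding and 7 long noncoding RNAs, and 11 of them had no count in any low-QQS epiRIL. For 8 of the 20, all 12 high-QQS lines were above all 12 low-QQS lines. Over all 19382 genes only these 8 showed such a separation upward (0.0413%), and 2 showed it downward (0.0103%). In epiHybrids the classes of 5 of the 20 did not overlap. Over all 19383 genes, QQS included, 6 genes were separated upward in epiHybrids (0.031%) and 0 downward (0%). Counts of 3 of the 20 (AT3G06095, AT3G30823 and AT3G06245) are uncertain, since another gene overlaps them and the use of strand is not given in the sources used here.

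On the right of QQS, the nearest tested gene was AT3G30770 (chromosome 3, start 12445493, 96.4 kb away), annotated as an aspartyl protease, a family of protein-cleaving enzymes. It had 3.94, 7.88 and 9.43 CPM (lowest, median and highest) in high-QQS lines and at most 0.154 CPM in low-QQS lines. Its log2 fold change was 7.49 ± 0.35 (SE, edgeR adjusted p = 1.31e-13), and in epiHybrids 7.46 (adjusted p = 8.00e-14). The classes did not overlap in either generation.

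Next to it lay the noncoding AT3G06095 and AT3G30820, which is annotated as an ORF-1 protein of a retrotransposon, a mobile element that is normally held silent. AT3G06095 had 0.147, 1.85 and 2.44 CPM (lowest, median and highest) in high-QQS lines and at most 0.0512 CPM in low-QQS lines (log2 fold change 7.0 ± 0.50, SE, edgeR adjusted p = 8.06e-10). AT3G30820 had 2.72, 3.79 and 8.22 CPM in high-QQS lines and no count in any low-QQS line, at least 62.0-fold higher when 3 counts per library are taken as the floor (adjusted p = 2.21e-09, edgeR). AT3G30823, at 212 kb, was present in a subset of lines, with 0, 9.27 and 15.9 CPM in high-QQS lines and no count in low-QQS lines (adjusted p = 0.0149, edgeR, at least 97.6-fold higher).

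On the left, the higher genes began at -0.551 Mb. AT3G30165, annotated as zinc ion-binding, had 0.0244, 5.87 and 10 CPM (lowest, median and highest) in high-QQS lines and no count in low-QQS lines (edgeR adjusted p = 0.000159, at least 73.9-fold higher). AT3G29633, an uncharacterized protein-coding gene at -0.897 Mb, had 9.89, 27.2 and 60.7 CPM in high-QQS lines and at most 0.336 CPM in low-QQS lines. Its log2 fold change was 7.40 ± 0.32 (SE, adjusted p = 4.98e-14, edgeR), and 6.07 in epiHybrids. The noncoding AT3G05955 at -0.763 Mb was higher with a log2 fold change of 4.82 ± 0.41 (SE). The uncharacterized genes AT3G29080 (-1.28 Mb, median 15.8 CPM) and AT3G25719 (-2.97 Mb, median 17.9 CPM), and the noncoding AT3G05595 (-1.42 Mb, median 4.9 CPM), had no count in low-QQS lines and were at least 219-fold, 176-fold and 59.9-fold higher in high-QQS lines.

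The call of AT3G25719 rests on few lines. It reached 1 CPM in 7 of the 12 high-QQS epiRILs (adjusted p = 0.0324, edgeR), and the call was lost when any one of these 7 lines (574, 211, 275, 419, 503, 379 or 519) was left out.

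The gene of highest level among the 20 was AT3G06465, a noncoding RNA at 2.44 Mb. It had 0.122, 181 and 263 CPM (lowest, median and highest) in high-QQS lines, against 0, 0.0123 and 0.365 CPM in low-QQS lines. The lowest of the high class was line 519, and it lay inside the range of the low class. The log2 fold change was 11.68 ± 0.81 (SE, edgeR adjusted p = 7.26e-10) in epiRILs and 9.30 in epiHybrids. Beside it, AT3G42723, annotated as an aminoacyl-tRNA ligase, had 0, 13.6 and 18.1 CPM in high-QQS lines and at most 0.102 CPM in low-QQS lines, with a log2 fold change of 10.04 ± 0.72 (SE).

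**Figure D3:**
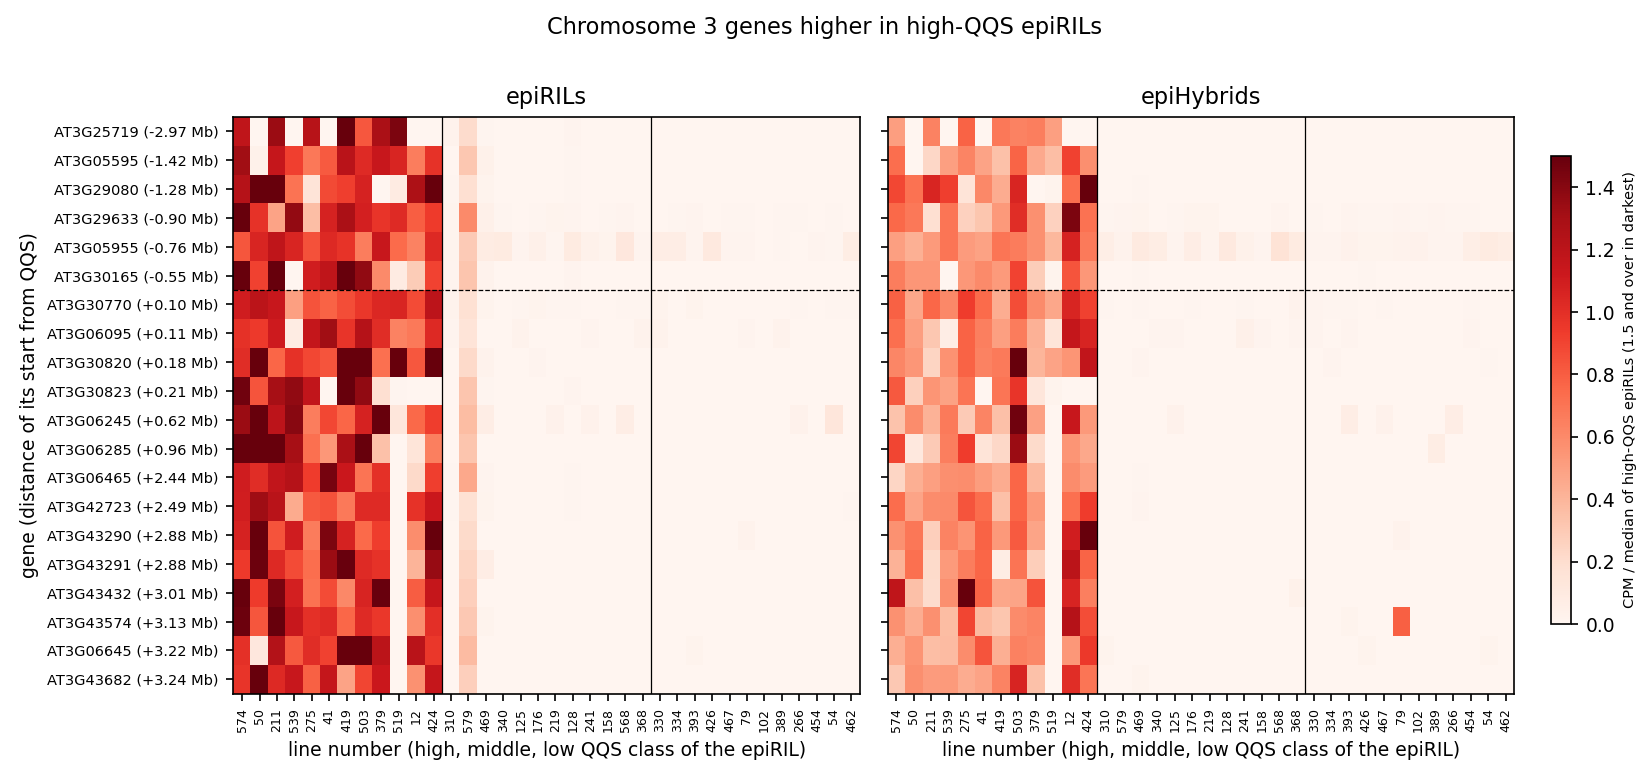
Level of each of the 20 chromosome 3 genes called higher, relative to its median in high-QQS epiRILs, in each epiRIL and epiHybrid (genes in order along the chromosome, lines in order of QQS). Line 519 lacks expression of the genes from AT3G30823 onward. EpiRIL 579 of the lines between the classes shares 16 of the 20 with the high-QQS lines.

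Counted by line, the 20 genes formed a block. A gene was counted as expressed in a library at 0.2 times its median in high-QQS epiRILs or more. Lines 574, 211, 419 and 503 expressed all 20, line 275 expressed 19, lines 41, 379 and 424 expressed 18, and lines 50, 539 and 12 expressed 17. All 12 low-QQS epiRILs and both msCol libraries expressed 0 of the 20. The 20 genes were selected on this contrast, so only the lines outside both classes and the epiHybrids add to it.

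Line 519 had a different pattern. It expressed 7 of the 9 genes up to AT3G30820 and 0 of the 11 from AT3G30823 onward, and its epiHybrid expressed 6 and 0. QQS was 24.1 CPM in this epiHybrid and 44.7 CPM in the epiRIL, within the range of the high class in each generation. High QQS was thus found in this line with the genes on the left of 0.2 Mb and without those on the right.

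Among the lines between the classes, QQS above the msCol level occurred without expression of the block by the cut of 0.2. Only epiRIL 579 expressed genes of the block by the cut of 0.2, 16 of 20, with 16.5 CPM of QQS. In this epiRIL the median over the 20 genes was 0.285 times the level of high-QQS lines. Its genes under the cut lay just below it, at 0.147 to 0.187. Its epiHybrid expressed 0 and had 2.35 CPM of QQS. By the same cut the other 11 lines between the classes expressed 0 of 20. Among them were lines 310, 469, 340, 125 and 176 with 19.8 to 9.30 CPM of QQS, all above both msCol libraries. Some had traces below the cut. Relative to its high-QQS median, AT3G06465 was at 0.0168 in epiRIL 469, 0.0107 in epiRIL 310 and 0.0096 in epiRIL 128. In low-QQS lines it was at most 0.00202. The median over the 20 genes was 0.0203 in epiRIL 469. Of the epiHybrids with low-QQS fathers, that of line 79 expressed 1 gene (AT3G43574) and the others expressed 0.

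EpiHybrids carry a paternal and a maternal copy of each of the 20 genes, and the maternal msCol lines did not express them. The ratio of the class mean in epiHybrids to that in the high-QQS epiRILs was 0.486 at the lowest, 0.575 at the median and 0.747 at the highest, beside 0.644 for QQS. These ratios are a description and were not tested.

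Genes that were not called stood among those that rose. To the left of QQS the 5 nearest tested genes, at -428 to -210 kb, were not called: AT3G30300, UMAMIT32, AT3G30380, AT3G30390 and bZIP42. The abundant AT3G30390, whose annotation overlaps AT3G30380, had 321 ± 37.8 CPM in high-QQS and 324 ± 49.4 CPM in low-QQS lines (SD, n = 12 each). UMAMIT32, of a family of amino acid transporters, had 1.21 ± 0.517 CPM in high-QQS and 1.39 ± 0.401 CPM in low-QQS lines. GDU6, next to QQS in the annotation, had at most 0.244 CPM in any library and was not tested. On the right, ERD5, a proline dehydrogenase of the mitochondria, lay 99.6 kb from QQS and next to AT3G30770. It had 33.4 ± 3.49 CPM in high-QQS and 43.2 ± 17.1 CPM in low-QQS lines, and its log2 fold change (-0.36 ± 0.15, SE, edgeR adjusted p = 0.962) was within the spread between lines.

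A further 11 genes of chromosome 3 had a difference of at least 1 on the log2(CPM + 1) scale without being called. They lay between -3.41 and 4.15 Mb from QQS, the farthest being AT3G06955 with a difference of 3.11. They reached 1 CPM in 6 to 12 of the high-QQS lines and also in 1 to 3 low-QQS lines. Examples are AT3G44265, at most 86.7 CPM in high-QQS and 111 CPM in low-QQS lines (adjusted p = 0.894, edgeR), and AT3G44070, at most 51.6 CPM in high-QQS and 57.1 CPM in low-QQS lines (adjusted p = 0.656). Their high and low classes therefore overlapped.

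On chromosome 3, 4 genes were lower in high-QQS lines. The clearest was BR6OX2 (AT3G30180, start 11810726, -0.538 Mb), the brassinosteroid-6-oxidase that makes castasterone and brassinolide in the last steps of the synthesis of these growth hormones. It had 9.10, 12.2 and 19.7 CPM (lowest, median and highest) in high-QQS lines, against 22.6, 34.4 and 45.3 CPM in low-QQS lines. No line of one class reached the other. The log2 fold change was -1.45 ± 0.12 (SE, edgeR adjusted p = 6.63e-09).

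The lines outside both classes sat with the low-QQS lines for BR6OX2. The 12 epiRILs between the classes had 26.3 to 46.9 CPM, and the msCol libraries had 26.3 and 34.6 CPM. In epiRIL 579, which expressed 16 of the 20 genes of the block, BR6OX2 had 28.5 CPM. In epiRIL 519, which did not express those from AT3G30823 onward, it had 11.35 CPM. The highest value among high-QQS lines, 19.7 CPM, came from the library labelled epiRIL 12. In epiHybrids BR6OX2 averaged 21.3 ± 4.75 CPM with high-QQS fathers and 34.9 ± 9.44 CPM with low-QQS fathers (SD, n = 12 each), and the ranges overlapped. The log2 fold change there was -0.73 ± 0.15 (SE, edgeR adjusted p = 0.0308). With the libraries of line 12 exchanged it was -1.52 in epiRILs (adjusted p = 3.53e-10) and -0.69 in epiHybrids (adjusted p = 0.0189). The epiRIL call was kept whichever line was left out, and the epiHybrid call was lost without any one of 9 lines (54, 102, 334, 574, 275, 41, 503, 379 or 424), with an adjusted p of up to 0.0741.

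The other gene whose classes did not overlap downward was AT3G43430 (3.01 Mb), annotated as a RING/U-box protein, a class of ubiquitin ligases. It had 0.359, 0.935 and 2.05 CPM (lowest, median and highest) in high-QQS lines, against 2.09, 2.68 and 5.93 CPM in low-QQS lines (adjusted p = 7.27e-05 in edgeR, log2 fold change -1.54 ± 0.20, SE). The highest value of the high class came from line 519, in which the higher genes from AT3G30823 onward were not expressed. In epiHybrids the log2 fold change was -0.76 and the call was not made (adjusted p = 0.117). The lines between the classes had 2.16 to 4.37 CPM and the msCol libraries 4.25 and 4.77 CPM.

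The remaining lower genes of chromosome 3 changed less. AT3G28880 (-1.46 Mb), annotated as a regulatory protein of phosphatase 6, fell by 0.97 ± 0.19 on the log2 scale (SE, edgeR adjusted p = 0.015), beside a log2 fold change of -0.49 in epiHybrids (adjusted p = 0.633). Its epiRIL call was lost with classes of 8 lines (the 8 highest against the 8 lowest), with classes of 18 and with QQS as a continuous predictor. Its counts are uncertain because AT3G05575 overlaps it. AT3G26490 (-2.65 Mb), of the NPH3 family of phototropism proteins, had 10.4, 11.9 and 17.6 CPM (lowest, median and highest) in high-QQS lines, against 13.6, 15.8 and 19.4 CPM in low-QQS lines. Its log2 fold change was -0.38 ± 0.08 (SE, edgeR adjusted p = 0.0465) and -0.41 in epiHybrids (adjusted p = 0.00141). With the libraries of line 12 exchanged the adjusted p in epiRILs was 0.0443, and without line 12 it was 0.0941. Its call was kept when 7 of the 24 lines were left out in turn and lost with the others, and it was also lost with TMM over the 24 libraries only, with classes of 8, with classes of 18 and with QQS as a continuous predictor.

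**Figure D4:**
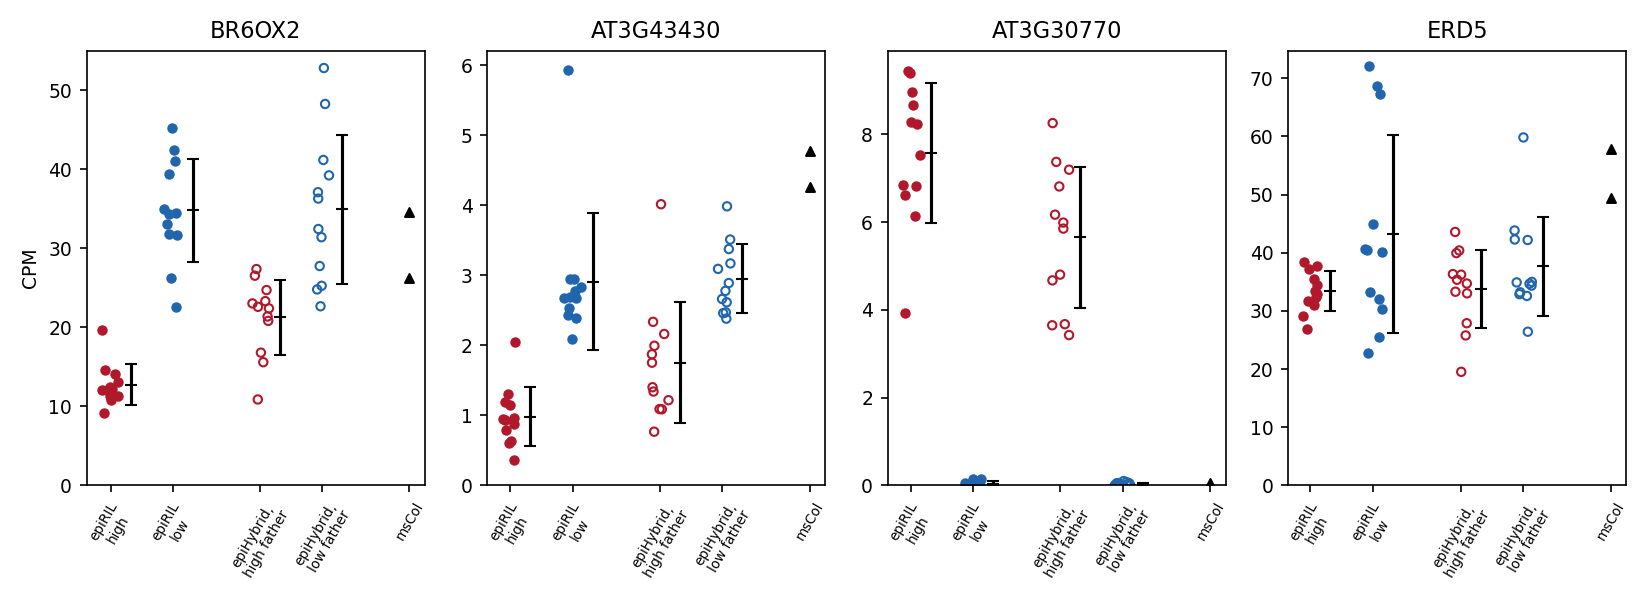
CPM by line of BR6OX2, AT3G43430, AT3G30770 and ERD5 in high-QQS and low-QQS epiRILs and in the epiHybrids of these fathers, with mean ± SD beside the points. The epiRIL classes of BR6OX2, AT3G43430 and AT3G30770 do not overlap, and those of ERD5 do.

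Since BR6OX2 acts in one pathway, 12 genes of brassinosteroid synthesis, breakdown and response were looked up after this result was seen. Of these 12, BR6OX2 was the only one called in epiRILs (1 lower, 0 higher) and in epiHybrids. The genes ROT3, DWF4, BR6OX1 and CPD encode cytochrome P450 enzymes that act earlier in synthesis or beside BR6OX2. ROT3 had 6.76 ± 1.1 CPM in high-QQS and 5.10 ± 1.21 CPM in low-QQS lines (SD, n = 12 each), a log2 fold change of 0.42 that missed the threshold (adjusted p = 0.0919, edgeR). DWF4 had 19.3 ± 1.40 CPM in high-QQS and 16.6 ± 1.76 CPM in low-QQS lines (log2 fold change 0.23, adjusted p = 0.234, edgeR). BR6OX1 and CPD were not called either (adjusted p = 0.262 and 0.715). BAS1, which inactivates brassinosteroids, averaged 5.56 CPM in high-QQS and 6.88 CPM in low-QQS lines (log2 fold change -0.30, adjusted p = 0.0977, edgeR). In epiHybrids the log2 fold changes of ROT3, DWF4 and BAS1 were 0.02, 0.11 and -0.20.

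Outside chromosome 3, 1 gene was higher and 27 were lower in high-QQS epiRILs. The higher one, AT1G02110 on chromosome 1, annotated as a bZIP-type transcription factor, had 15.5, 20.2 and 23.2 CPM (lowest, median and highest) in high-QQS lines and 13.0, 16.9 and 19.4 CPM in low-QQS lines. Its log2 fold change of 0.31 ± 0.06 (SE, edgeR adjusted p = 0.0221) stood beside 0.02 in epiHybrids, where it was not called (adjusted p = 0.908). Its call was lost without line 503, without line 424, with classes of 8 and of 18 and in the fit of all 74 libraries.

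The 27 lower genes were largely silent in the high class and active in some lines of the low class. Of these, 24 were under 1 CPM in every high-QQS epiRIL, 14 of them on chromosome 2 (1.25 to 8.38 Mb), 9 on chromosome 5 (11.2 to 16.7 Mb) and 1 on chromosome 4 (AT4G10160). AT4G10160 also stayed under 1 CPM in every low-QQS epiRIL and reached it in 2 of the lines between the classes. Its call was lost without line 503, with classes of 8 and of 18, with the continuous predictor and in the 74-library fit. Counts of 8 of the 27 are uncertain because another gene overlaps them.

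Which low-QQS lines were active differed between both chromosomes. Of the 14 genes of chromosome 2, line 102 had 14 at 1 CPM or more, lines 389 and 54 had 13, line 266 had 12, line 79 had 6 and line 467 had 1. Of the 9 genes of chromosome 5, lines 330, 334, 266 and 454 had 8, and lines 467 and 462 had 7. Lines 393 and 426 had none of either set. No high-QQS line had any. These sets were selected on this contrast, but lines outside the classes carried them too. EpiRIL 158 had 13 genes of the chromosome 2 set and 6 of the chromosome 5 set, epiRIL 340 had 6 of the chromosome 2 set, epiRIL 469 had 9 of the chromosome 5 set, and epiRILs 219 and 241 had 6 each. Each set was thus expressed, whole or in part, in 6 of the 12 low-QQS lines. Genes of a set lie on the same chromosome and were mostly active in the same lines. Their calls are therefore not independent observations.

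**Figure D5:**
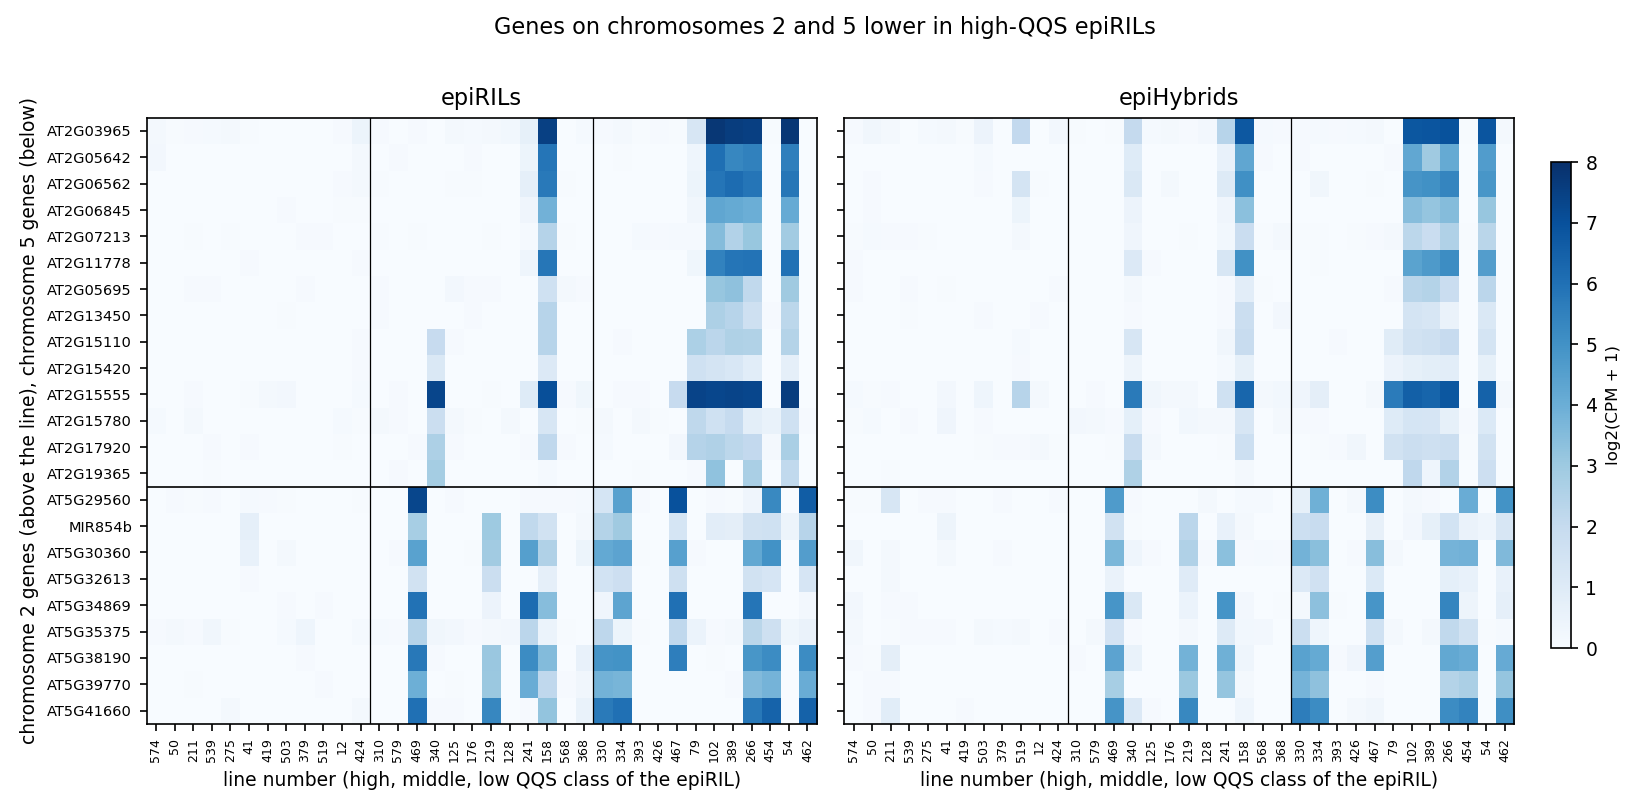
Level, as log2(CPM + 1), of the 14 chromosome 2 genes and of the 9 chromosome 5 genes in each epiRIL and epiHybrid, with lines in order of QQS in the epiRIL. The high-QQS epiRILs have 0 genes of either set at 1 CPM or more. At that level 6 low-QQS epiRILs have genes of each set, and epiRILs 393 and 426 have none.

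The noncoding AT2G15555 was an example on chromosome 2. It had at most 0.148 CPM in high-QQS lines, against 0, 1.47 and 189 CPM (lowest, median and highest) in low-QQS lines (log2 fold change -10.91 ± 1.78, SE, edgeR adjusted p = 0.00178), and epiRILs 158 and 340 between the classes had 132 and 159 CPM. AT5G38190, annotated as a myosin heavy chain-like protein, was an example on chromosome 5. It had at most 0.0512 CPM in high-QQS lines, against 0, 13.7 and 46.9 CPM in low-QQS lines (log2 fold change -11.20 ± 1.75, SE, adjusted p = 0.00103, edgeR). Both were also lower in epiHybrids of high-QQS fathers (log2 fold changes -6.46 and -7.14). The epiRIL call of AT5G38190 was lost without line 379 and with classes of 8, and those of both genes were lost with classes of 18 and with QQS as a continuous predictor. In epiHybrids the call of AT2G15555 was lost without any one of 15 lines (adjusted p up to 0.075). AT2G11778, AT5G41660, AT2G06562, AT5G34869, AT2G03965 and AT5G29560 had similar profiles, with a highest value of 62.5 to 216 CPM in low-QQS lines and at most 0.341 CPM in high-QQS lines.

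SQN (AT2G15790, SQUINT), a cyclophilin that promotes the activity of the small RNA effector ARGONAUTE1, was expressed in every line and was highest in the 5 low-QQS lines with 6 or more genes of the chromosome 2 set. It had 10.98, 14.2 and 18.2 CPM (lowest, median and highest) in high-QQS lines, against 14.0, 18.6 and 295 CPM in low-QQS lines. The values of 295, 282, 259, 235 and 89.4 CPM came from lines 79, 102, 54, 389 and 266, and epiRILs 340 and 158 between the classes had 204 and 191 CPM. The msCol libraries had 17.8 and 15.6 CPM. The log2 fold change was -2.86 ± 0.56 (SE, adjusted p = 0.0123, edgeR) and -1.68 in epiHybrids (adjusted p = 0.0367), and its annotation overlaps AT2G15800. AT5G62280 on chromosome 5 was lower by a smaller amount (log2 fold change -0.43 ± 0.09, SE, adjusted p = 0.0382, edgeR), and its call was kept in only 8 of the 24 fits that left out 1 line and was lost with the libraries of line 12 exchanged, with classes of 8 and of 18, with QQS as a continuous predictor and in the fit of all 74 libraries.

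Given what QQS is known for, lists of genes of its pathways were examined. None of the 114 tested members of 12 lists was called in epiRILs or in epiHybrids (0 higher, 0 lower, edgeR). At an unadjusted p under 0.05, 4 of the 114 (3.51%) passed in epiRILs, beside 4.5% of all genes. Of 17 genes of starch synthesis 12 had a log2 fold change above 0, with a median of 0.0296. The 21 genes of starch breakdown had a median of 0.0214, the 15 of nitrogen assimilation 0.0154 and the 6 tested of NF-YC and SnRK1 0.0145. The median over all tested genes was 5.18e-05.

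The members of lowest p show the size of these values. PGI1, the plastid phosphoglucose isomerase that feeds starch synthesis, had 116 ± 9.34 CPM in high-QQS and 111 ± 8.54 CPM in low-QQS lines (SD, n = 12 each). DPE1, the plastid disproportionating enzyme of starch breakdown, had 82.4 ± 6.48 CPM in high-QQS and 77.5 ± 7.20 CPM in low-QQS lines. NIA2, the main nitrate reductase, had 547 ± 61.5 CPM in high-QQS and 611 ± 97.6 CPM in low-QQS lines. KIN10, the catalytic subunit of the energy sensor SnRK1, had 75.8 ± 7.76 CPM in high-QQS and 72.0 ± 9.81 CPM in low-QQS lines. Each of these differences was within the spread between lines.

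No gene of the DNA methylation machinery was called. Of its 23 tested genes 9 had a log2 fold change above 0, with a median of -0.0103, and DDM1 had 7.01 ± 2.05 CPM in high-QQS and 6.69 ± 1.99 CPM in low-QQS lines (SD, n = 12 each). DRM2, a de novo DNA methyltransferase and the member of lowest p, had 13.6 ± 0.808 CPM in high-QQS and 13.2 ± 0.923 CPM in low-QQS lines. BNS, the only tested gene of 4 silenced by methylation, had 3.19 ± 0.484 CPM in high-QQS and 3.21 ± 0.543 CPM in low-QQS lines.

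Among the other lists, the 7 genes of salicylic acid defence were all below 0 in epiRILs (median -0.246), although none was called. ICS1, listed as EDS16, makes most of the salicylic acid of leaves, and had 24.8 ± 2.75 CPM in high-QQS and 30.9 ± 7.65 CPM in low-QQS lines (log2 fold change -0.30 ± 0.10, SE, edgeR adjusted p = 0.495). In epiHybrids its log2 fold change was 0.10 and the median of the list 0.0151. The 6 floral markers were all above 0 (median 0.25), led by AG, a floral organ identity gene, with 3.02 ± 1.03 CPM in high-QQS and 2.36 ± 0.57 CPM in low-QQS lines (adjusted p = 0.972, edgeR). The 8 clock genes had a median of -0.0447 and the 5 genes of cold and water deficit a median of 0.182. PRR9, a clock repressor, had 23.5 ± 4.04 CPM in high-QQS and 27.8 ± 4.19 CPM in low-QQS lines (adjusted p = 0.661, edgeR). RAB18, a dehydrin, had 14.3 to 138 CPM in high-QQS and 14.8 to 27.5 CPM in low-QQS lines.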

How the data were processed

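RNA-seq libraries of 36 epiHybrids, 36 epiRILs and 2 msCol lines were used. The authors deposited 1 table of raw read counts per gene, not normalised, and per their methods reads were trimmed with Trim Galore, aligned to TAIR10 with TopHat2 and assigned with featureCounts. Versions, use of strand and treatment of multiple alignments are not given in the sources used here, so counts of overlapping genes and of near copies are uncertain. The table listed 32833 genes, of which 32536 were matched to the TAIR10.1 annotation of RefSeq for symbols and positions. No column belonged to another sample.

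Library totals were 38.13 to 42.21 M counts, so that 3 counts, the floor used against libraries without any count, correspond to 0.0743 CPM. This floor covers counting error only, while the SD and SE given include the spread between lines. Genes reaching 1 CPM in 2 or more of the 74 libraries were kept (19383 genes, 99.94% of counts) and normalised by TMM over all 74 (factors 0.756 to 1.09). Both classes were tested against each other in edgeR 4.0.16 under R 4.3.3 (quasi-likelihood, two-sided, BH adjusted p under 0.05), without a block. The interaction of class and generation was fitted over 48 libraries. Standard errors were derived from F. QQS in epiHybrids was tested by permutation of log2(CPM + 1). DESeq2 1.42.0 was an alternative, as were other normalisations, filters, class sizes, QQS as a continuous predictor, a fit of all 74 libraries, the line number as block and the omission of each line. The edgeR script was tested on simulated counts with 50 genes changed at each fold. Of these, 32% were recovered at 1.25-fold (16 genes), 74% at 1.5-fold (37), 98% at 2-fold (49) and 100% at 4-fold (50). Beside them stood 17 false calls among 19383 genes, a larger share of the calls than the 0.05 aimed at. The changed genes averaged at least 1 CPM and changed at most 4-fold, so genes silent in 1 class were not simulated.

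The members, gene lists and tests were chosen with earlier results of these data known, and the exchange of the libraries of line 12 and the brassinosteroid list were added after seeing the data. Genes were named by rule: QQS, the 5 nearest tested genes on each side, the 8 highest and 8 lowest called log2 fold changes on chromosome 3 and likewise elsewhere, and of each list the called members or that of lowest p. Further called genes were named after their values were seen, as examples of a position or pattern.

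The pairing of an epiHybrid with the epiRIL of its number comes from parentage. The correlation of their deviations from class means over genes averaged 0.379 ± 0.286 (SD, 24 pairs), was above 0.1 in 20 pairs, and averaged -0.0152 between different lines.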

Additional observations from a re-analysis of the deposited data

Results flagged for a closer look

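EpiRIL 579 belonged to neither class, so the comparisons did not use its library, and it was looked up because genes of the chromosome 3 block appeared there above the level of the msCol controls. It expressed 16 of the 20 genes, against 0 in either msCol library, 6 of 9 up to AT3G30820 and 10 of 11 from AT3G30823 onward. The median level over the 20 genes was 0.285 times that of the high-QQS epiRILs, and the genes under the cut of 0.2 lay at 0.147 to 0.187. Its epiHybrid expressed 0 of the 20. The part of the label or of the pool of plants in this was not tested.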

How the results depend on the processing

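The epiRIL comparison called 52 genes. DESeq2 called 79 (37 higher, 42 lower), the 8 highest against the 8 lowest lines 31 (19 higher, 12 lower), QQS as a continuous predictor over 36 lines 96 (39 and 57), and the fit of all 74 libraries 92 (32 and 60). A minimum of 1 CPM in 12 libraries left 8 calls (4 and 4). A gene silent in 1 class then entered only with 1 CPM in all 12 lines of the other class, as AT3G30820 did. AT1G02110, AT3G26490 and AT5G62280, expressed in every line, lost their calls too. Other normalisations, no filter, the length slope, classes of 18 and the exchange of line 12 gave 52 to 70 calls. Of the 20 chromosome 3 genes called higher, 20 were kept under each of these except 4 with 1 CPM in 12 libraries and 19 with classes of 8. Of the 27 lower genes elsewhere, 22 were kept with DESeq2, 9 with classes of 8, 9 with classes of 18 and 12 with the continuous predictor, and of the 4 lower genes of chromosome 3, 2 were kept with each of the last 3. The epiHybrid comparison called 54 genes, 22 higher and 32 lower, against 5 with 1 CPM in 12 libraries (4 and 1), 30 with classes of 8 (19 and 11), 33 in the fit of all 74 libraries (24 and 9) and 51 with the length slope (34 and 17). The interaction gave 0 calls, 5 with DESeq2, and 0 with the line number as replicate block, the paired fit. The difference of QQS in epiHybrids was 2.67, and 1.762 to 2.932 over its alternatives. Leaving out 1 line at a time gave 44 (without line 503) to 65 (without line 393) calls in epiRILs, 32 (without line 503, 11 lower) to 67 (without line 330) in epiHybrids, and 2.614 to 2.769 for QQS. Leaving out lines 340 and 368, which belong to neither class, was not run. The cause of these changes was not tested except where stated.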

Other observations

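Of the 53 genes other than QQS called in epiHybrids, 12 were not called in epiRILs. AT3G43148 and AT3G24517 on chromosome 3 were higher with high-QQS fathers, at 1.04 against 0.00406 CPM and at 1.17 against 0.0733 CPM (means of 12 epiHybrids with high-QQS fathers against 12 with low-QQS fathers). With high-QQS fathers AT3G43148 had a median of 0 and a highest value of 7.11 CPM, so its mean rested on a part of the lines. The median of AT3G24517 was 1.23 CPM there. Another 9 were low or silent genes of chromosomes 2 and 5, at most 0.0421 CPM on average with high-QQS fathers and at most 2.38 CPM with low-QQS fathers. The remaining one, AT2G30930, was expressed throughout, with 66.7 CPM with high-QQS and 84.5 CPM with low-QQS fathers (log2 fold change -0.35 ± 0.08, SE, edgeR adjusted p = 0.0464), beside -0.30 in epiRILs (adjusted p = 0.716). For none of the 12 was a difference between generations called (edgeR interaction test), while DESeq2 called it for 2 of them, AT2G14945 and AT2G15710.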
